A study of Caenorhabditis elegans with 40 samples.

Results

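The fatty acid desaturase genes fat-1, fat-2, fat-3, fat-4, fat-5, fat-6 and fat-7 of the nematode Caenorhabditis elegans were followed across 5 genotypes, each fed bacteria carrying repo-1 double-stranded RNA or an empty vector. They were the rows of the deposited table whose reference gene symbol was fat-1 to fat-7, 7 of 20956 genes. The mutants were eat-2(ad1116) in strain DA1116, raga-1(ok386) in strain VC222, clk-1(qm30) in strain MQ130 and age-1(hx546) in strain TJ1052, and the wild type was N2. RNAi or empty vector feeding began at hatching, and whole worms were collected on day 1 of adulthood. Each of the 10 groups had 4 poly(A) RNA-seq libraries, 40 in all. Each mutant was represented by 1 allele and 1 strain.

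Desaturases put double bonds into fatty acid chains, and C. elegans makes its unsaturated fatty acids with this family, mostly in the intestine and hypodermis. fat-5 encodes a palmitoyl-CoA desaturase, which makes palmitoleic acid, and fat-6 and fat-7 encode stearoyl-CoA desaturases, which make oleic acid, the entry point to polyunsaturated fatty acids. The fat-2 enzyme converts oleic acid to linoleic acid, the fat-3 and fat-4 enzymes add the further double bonds of the long polyunsaturated fatty acids, and the fat-1 enzyme turns omega-6 into omega-3 fatty acids. The nuclear receptors nhr-49 and nhr-80, the sterol regulatory element binding protein sbp-1 and the Mediator subunit mdt-15 are known activators of the fat-5, fat-6 and fat-7 group.

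On WBcel235, 5 of the 7 genes lay on chromosome IV. fat-1 (IV, 13315644 to 13318811) and fat-2 (IV, 13323873 to 13326395) lay on the plus strand, with 5061 bases between them. fat-4 (IV, 9799429 to 9802226) and fat-3 (IV, 9803023 to 9806119) also lay on the plus strand, 796 bases apart. fat-6 (IV, 11913692 to 11915687) was on the minus strand. fat-5 lay on the plus strand of chromosome V (17725004 to 17726818) and fat-7 on the minus strand of V (7151353 to 7153146). Exonic lengths ran over a narrow range, from 1104 bases for fat-5 to 1540 bases for fat-4.

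The libraries held 7430044 reads assigned to genes at the least and 40777780 at the most. repo-1 itself was lower in the RNAi libraries of all 5 genotypes, with no overlap between RNAi and empty vector libraries in any of them, by 1.9-fold in eat-2 to 2.63-fold in wild type. All values below are the authors' normalized counts, and tests are limma on log2(value + 1) over 12327 genes, called at a Benjamini-Hochberg adjusted p under 0.05. Nothing in the labels says that each replicate was its own culture. A p-value here therefore speaks only of the spread from library to library, which may be technical. In whole worms, fewer cells of a type and less RNA per cell cannot be told apart. The median gene moved by 0.10 (log2) under repo-1 RNAi in raga-1 and by 0.12 in the raga-1 interaction. The changes of the authors' normalized counts given below were not corrected for those shifts. In no alternative scaling or fit did a called change of a desaturase gene turn its direction.

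Per kilobase of exon in empty vector wild type, fat-2 stood highest at 4087 ± 269 and fat-1 next at 3629 ± 98.2 normalized counts per kb (SD, n = 4, as for all means here). fat-6 followed at 2888 ± 276 and fat-4 at 1611 ± 42.8. fat-3 (558 ± 46), fat-5 (426 ± 13.9) and fat-7 (106.7 ± 37.8) made up the low end. fat-7 thus rested on the fewest reads of the 7.

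**Figure D1:**
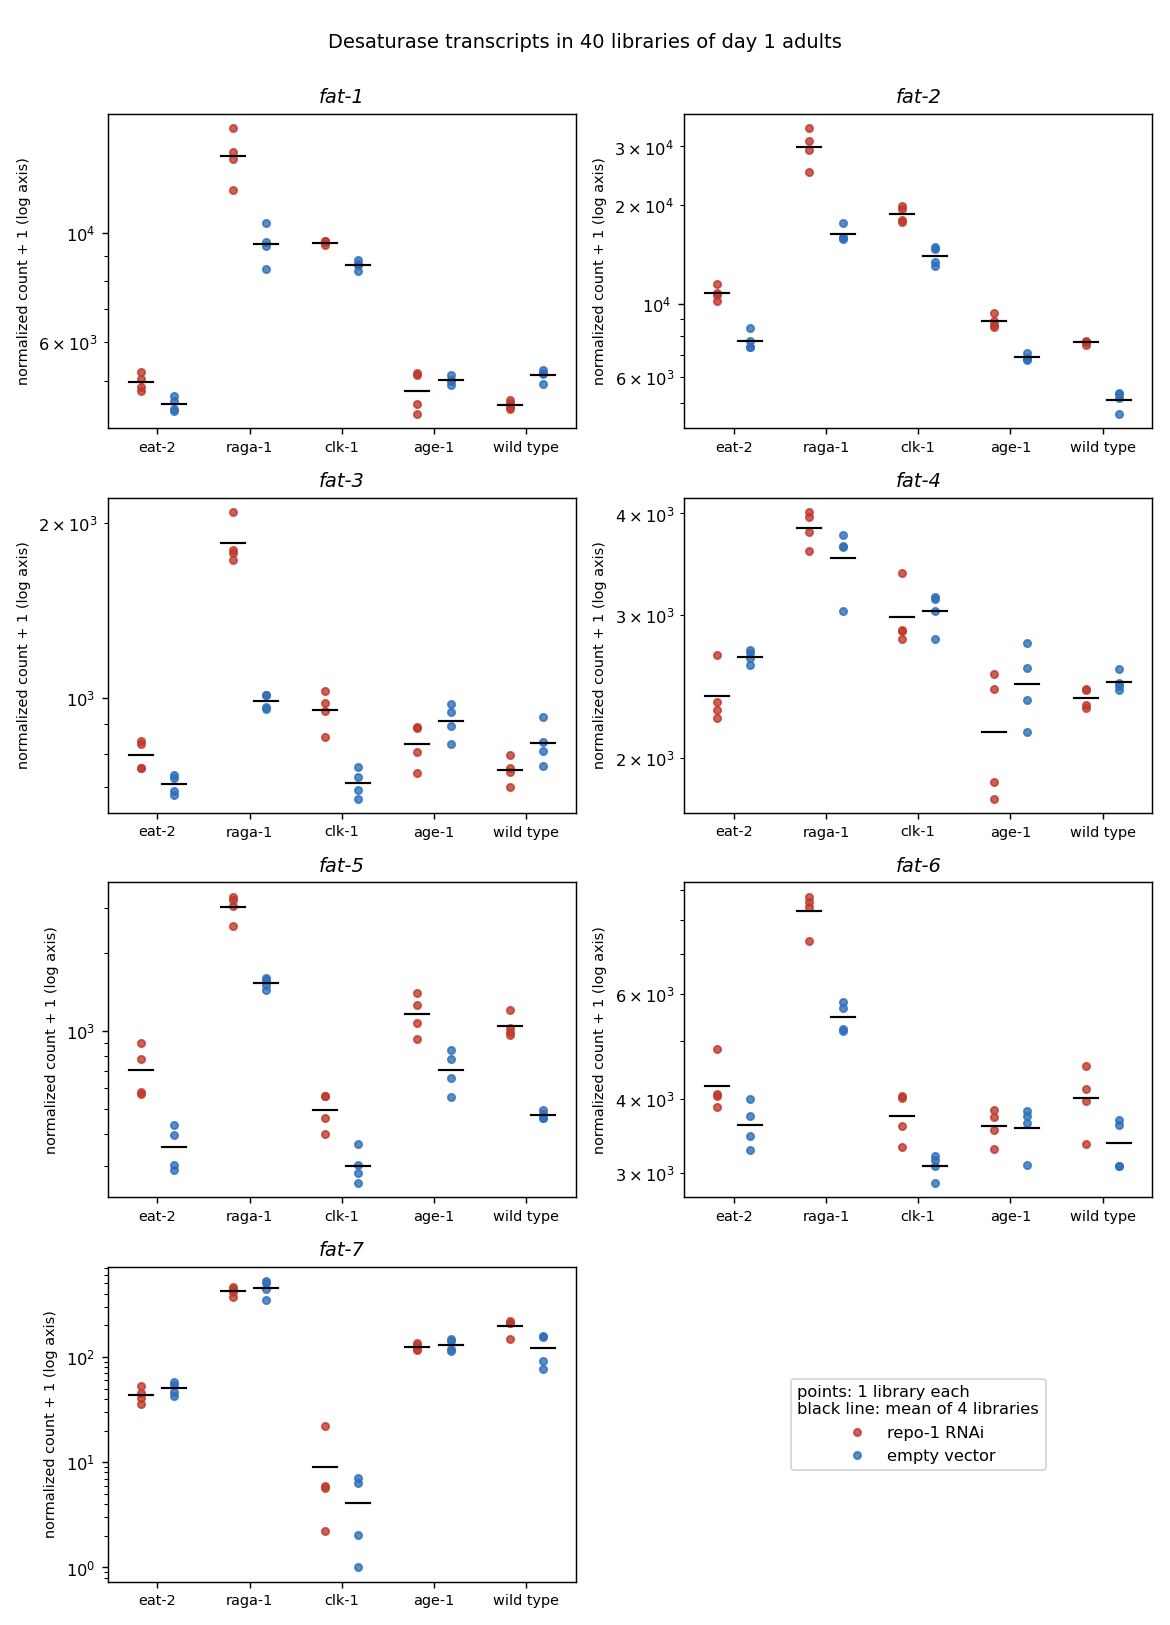
Normalized counts of each desaturase gene in all 40 libraries on log axes, with repo-1 RNAi libraries left of empty vector libraries in each genotype and group means as bars. For fat-1 to fat-6 the raga-1 RNAi libraries hold the highest mean, and fat-7 is near the bottom of its range in clk-1.

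Whether the response of desaturase genes to repo-1 RNAi depends on genotype was asked within each genotype first. fat-2 and fat-5 rose in all 5 genotypes, fat-6 rose in 4, and fat-4 passed the test in none. In wild type, 3 of the 7 genes rose (fat-2, fat-5 and fat-6) and fat-1 fell, where 10.1% of all tested genes rose and 12.9% fell. In eat-2, 5 rose and 0 fell, against 16.2% and 21.4% of all tested genes. In raga-1, 5 rose and 0 fell, against 38.2% and 33%, so a rise was a common event in that comparison. In clk-1, 6 rose and 0 fell, against 23.8% and 22.5%. In age-1, fat-2 and fat-5 alone among the 7 rose and 0 fell, against 10.6% and 10.2%. The median log2 change of the 7 was highest in raga-1 (0.59) and clk-1 (0.41), followed by wild type (0.25), eat-2 (0.17) and age-1 (-0.06).

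**Figure D2:**
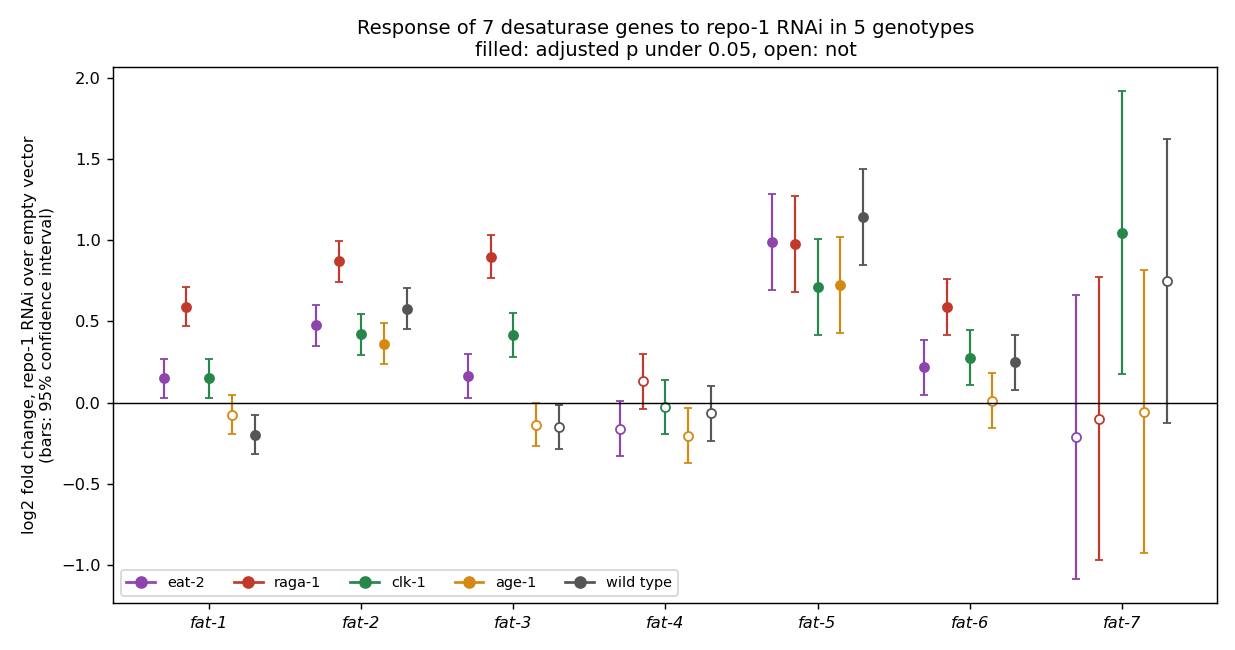
Log2 change, repo-1 RNAi over empty vector, of each desaturase gene in each genotype, with 95% confidence intervals from limma. The points of fat-2 and fat-5 lie above 0 in all 5 genotypes, and fat-3 is highest in raga-1 at 0.90.

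The mutants were compared with wild type on each food. The 4 mutant comparisons on a food share the same wild type libraries. On empty vector, all 7 genes were higher in raga-1 and 0 lower, where 19.7% of all tested genes were higher and 26.4% lower. clk-1 had 3 higher and 3 lower, against 27.8% and 30.4%. eat-2 had 1 higher and 4 lower, against 27.2% and 29.8%. age-1 had 2 higher and 0 lower, against 4.76% and 3.72%. On repo-1 RNAi, all 7 were again higher in raga-1 and 0 lower, but 40.5% of all tested genes were higher there and 38% lower. On the same food clk-1 had 4 higher and 2 lower (29.3% and 29% of all tested genes), eat-2 had 2 and 2 (23.4% and 23.5%), and age-1 had 1 and 0 (7.29% and 4.57%). The median log2 difference of the 7 in raga-1 was 0.88 on empty vector and 1.30 on repo-1 RNAi.

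**Figure D3:**
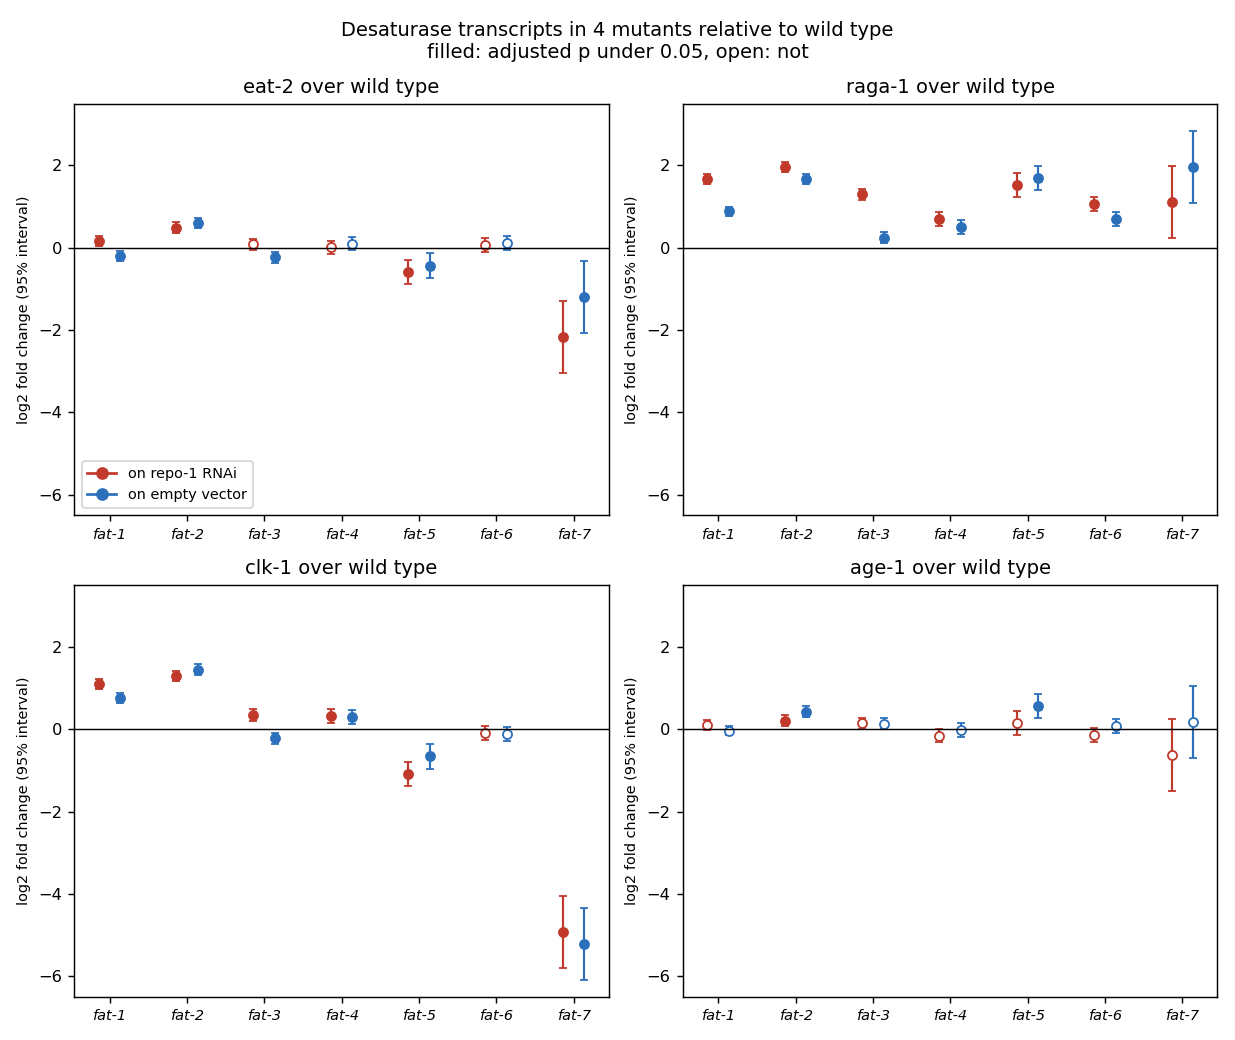
Log2 difference, mutant over wild type, of each desaturase gene on repo-1 RNAi and on empty vector, with 95% confidence intervals from limma. raga-1 lies above 0 for all 7 genes on both foods, and clk-1 lies far below 0 for fat-7.

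fat-5, the palmitoyl-CoA desaturase, about doubled on repo-1 RNAi in wild type, eat-2 and raga-1, and rose by less in clk-1 and age-1. Wild type libraries on repo-1 RNAi held 990.3, 1207, 963 and 1028 normalized counts, against 474, 457, 491 and 461 on empty vector. The eat-2 libraries held 580.5, 897, 566 and 775 on repo-1 RNAi, against 300.5, 432, 288 and 393 on empty vector. Every RNAi library lay above every empty vector library in both genotypes. In raga-1 the values were 3311, 3220.5, 2546 and 3039.5 on repo-1 RNAi, against 1568, 1609, 1436 and 1512 on empty vector. In clk-1 they were 558, 398, 458 and 556 on repo-1 RNAi, against 279.8, 256, 362 and 301 on empty vector. age-1 gave 927, 1406, 1071 and 1263 on repo-1 RNAi, against 658, 841, 551 and 775 on empty vector. These 3 genotypes also showed no overlap between foods. The rise was 2.21-fold in wild type (log2 1.15 ± 0.146 SE, adjusted p 3.36e-07), 1.98-fold in eat-2 (adjusted p 1.76e-06) and 1.97-fold in raga-1 (3.87e-07). It was 1.64-fold in clk-1 (log2 0.71, adjusted p 0.00013) and 1.65-fold in age-1 (log2 0.72, adjusted p 0.000524). The smaller log2 changes in clk-1 and age-1 did not pass the test of their difference from wild type. The clk-1 difference was -0.43 ± 0.206 (adjusted p 0.128), though it passed with an adjusted p of 0.0441 when only those groups were fitted.

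Between genotypes, fat-5 was highest in raga-1 and lowest in clk-1. On empty vector it was 3.25-fold higher in raga-1 than in wild type (adjusted p 9.92e-12) and 1.58-fold lower in clk-1 (adjusted p 0.000204). eat-2 was lower by 0.43 on the log2 scale (adjusted p 0.011), a call lost without eat-2 empty vector replicate 3 (log2 -0.34, adjusted p 0.06). age-1 was 1.48-fold higher (adjusted p 0.00972), a call lost without age-1 empty vector replicate 2 (log2 0.48, adjusted p 0.0598). On repo-1 RNAi the raga-1 excess was 2.89-fold (adjusted p 1.24e-11), while clk-1 was 2.14-fold lower (6.18e-08) and eat-2 1.51-fold lower (0.00105) than wild type on the same food.

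fat-6, the more abundant stearoyl-CoA desaturase gene, moved less. In raga-1 it held 8421, 8749.7, 8583 and 7368 normalized counts on repo-1 RNAi, against 5244, 5691, 5828 and 5211 on empty vector. Wild type held 3969, 4548, 4157 and 3353 on repo-1 RNAi, against 3681, 3089, 3610.0 and 3089 on empty vector. The raga-1 foods were fully separated, whereas in wild type replicate 4 on repo-1 RNAi fell inside the empty vector range. fat-6 rose 1.51-fold in raga-1 (log2 0.59 ± 0.0842, adjusted p 1.7e-07), 1.21-fold in clk-1 (adjusted p 0.00697), 1.19-fold in wild type (0.0303) and 1.16-fold in eat-2 (0.0412), and its log2 change in age-1 was 0.01 (0.944). The wild type call was lost without empty vector replicates 2 or 4 or RNAi replicates 1, 2 or 3 (adjusted p 0.0567 to 0.146). The eat-2 call was lost without empty vector replicates 1 or 3 or RNAi replicates 2 or 3 (0.053 to 0.201). Leaving out batch 1, 2 or 3 also ended it (0.108 to 0.147), as did edgeR, TMM scaling and quantile normalization (0.0694 to 0.112). In the mutants, fat-6 was 1.63-fold higher in raga-1 than in wild type on empty vector (adjusted p 1.54e-08) and 2.07-fold higher on repo-1 RNAi (1.43e-13). The differences of eat-2, clk-1 and age-1 from wild type on empty vector were 0.11, -0.12 and 0.09 on the log2 scale (adjusted p 0.294, 0.21 and 0.614).

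fat-7, the second stearoyl-CoA desaturase gene, varied most between genotypes and was almost silent in clk-1. The clk-1 libraries held 21.2, 1.24, 4.65 and 4.91 normalized counts on repo-1 RNAi, against 5.32, 1.04, 6.01 and 0 on empty vector. Wild type held 208, 217, 208 and 148 on repo-1 RNAi, against 158, 91.1, 155 and 76.1 on empty vector. Every clk-1 library was below every wild type library, and the wild type foods overlapped. raga-1 libraries held 461, 369, 440.1 and 417 on repo-1 RNAi, against 440.1, 351, 509 and 523 on empty vector. eat-2 libraries held 44.5, 39.8, 51.9 and 34.5 on repo-1 RNAi, against 42.1, 45.1, 53.4 and 57.1 on empty vector. The age-1 values lay between 115 and 135 on repo-1 RNAi and between 114 and 147 on empty vector. raga-1 was thus above wild type and eat-2 below it on either food.

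On empty vector, fat-7 in clk-1 was 37.4-fold lower than in wild type (log2 -5.22 ± 0.431, adjusted p 1.08e-12), a ratio that rests on a clk-1 mean of 3.1 normalized counts. In raga-1 it was 3.92-fold higher (adjusted p 0.000304). eat-2 was 2.3-fold lower (adjusted p 0.0169), a call lost without wild type empty vector replicates 1 or 3 (adjusted p 0.0548 to 0.0574). On repo-1 RNAi, fat-7 was 30.4-fold lower in clk-1 (adjusted p 4.64e-12), 4.49-fold lower in eat-2 (8.82e-05) and 2.17-fold higher in raga-1 (0.0186). The clk-1 difference on that food was -4.93 on the log2 scale and -5.53 without clk-1 RNAi replicate 1, the highest of its group, and the ratio of the group means was 24.4. The raga-1 call on that food was lost without wild type RNAi replicate 4 (log2 0.99, adjusted p 0.0545), the lowest of the wild type RNAi libraries. For age-1 on repo-1 RNAi all 4 libraries were below the wild type ones, with a log2 difference of -0.63 (adjusted p 0.36, but 0.0221 with only those groups fitted).

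For the RNAi response of fat-7 the standard error of 0.431 comes from 1 spread estimate shared by all groups, including the clk-1 libraries with few reads. In wild type the log2 change was 0.75 (adjusted p 0.215), and it passed with edgeR, with a pseudocount of 5 and with only those groups fitted (adjusted p 0.022 to 0.0459). The call in clk-1 (log2 1.05, adjusted p 0.0446) was lost without empty vector replicates 2 or 4 or RNAi replicates 1, 3 or 4 (log2 0.45 to 1.11, adjusted p 0.0582 to 0.362) and under 6 of the other settings.

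fat-6 and fat-7 are close paralogs, and how reads shared by both were assigned is not given in the sources used here, so the split between them is uncertain. The fat-7 share of their summed counts was 4.87% ± 0.583 in raga-1 on repo-1 RNAi, against 7.68% ± 1.38 on empty vector. In wild type it was 4.63% ± 0.318 on repo-1 RNAi, against 3.38% ± 0.877 on empty vector. The RNAi share was thus the lower one in raga-1 and the higher one in wild type, and in both the foods did not overlap. It was 1.35% ± 0.195 in eat-2 and 0.101% ± 0.0985 in clk-1 on empty vector, both below wild type. Each of these had an exact permutation p of 0.0286 (two-sided), the smallest that 4 against 4 libraries allow, and none passed after adjustment over 9 comparisons (adjusted p 0.0514). The summed count, which does not depend on the split, rose in wild type (log2 0.27, adjusted p 0.0194), eat-2 (0.21, 0.0457), raga-1 (0.55, 6.72e-07) and clk-1 (0.28, 0.00652). It was higher in raga-1 than in wild type on empty vector (0.77, adjusted p 2.24e-09), and the clk-1 difference was -0.17 (0.0784).

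**Figure D4:**
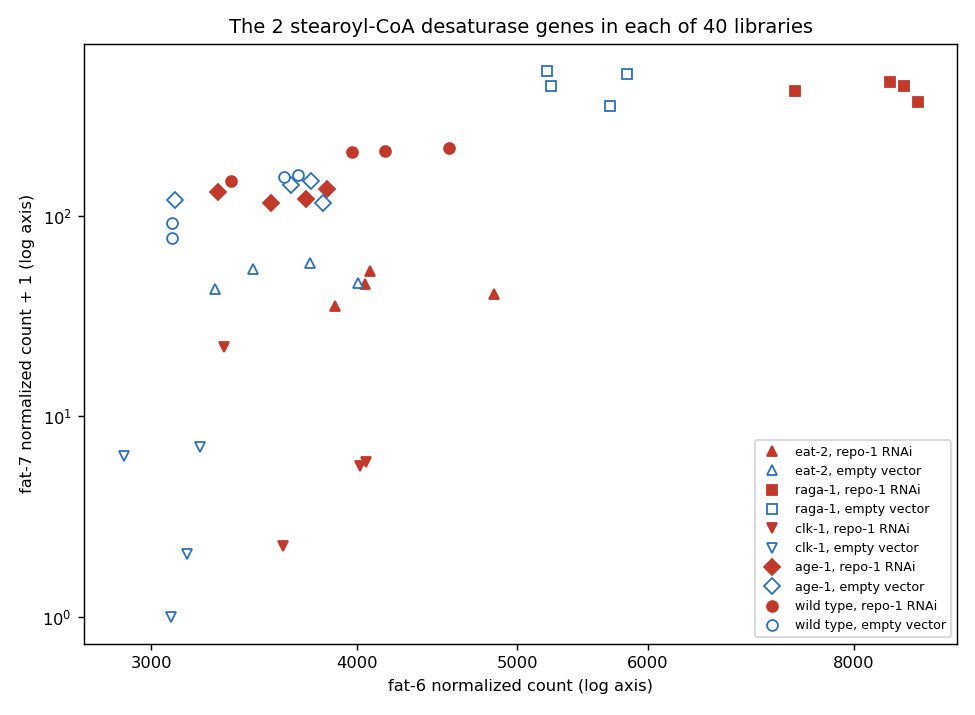
Normalized counts of fat-6 and fat-7 plotted against each other in the 40 libraries, marked by genotype and food. The raga-1 libraries lie highest on both axes, and the clk-1 libraries lie lowest for fat-7.

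fat-2, which makes linoleic acid from oleic acid, was the desaturase gene with the highest level per kb in wild type, and it rose on repo-1 RNAi in every genotype. raga-1 held 34166, 31138, 25122 and 29293 normalized counts on repo-1 RNAi, against 17557, 15923, 15876 and 15686 on empty vector. Wild type held 7732, 7696, 7687 and 7496 on repo-1 RNAi, against 5332, 5176, 5372 and 4638 on empty vector. In eat-2 the values were 10211, 11482, 10609.7 and 10774 on repo-1 RNAi, against 7419, 8458, 7402 and 7712 on empty vector. The foods did not overlap in these genotypes. clk-1 ranged over 17718 to 19819 on repo-1 RNAi and 13012 to 14868 on empty vector, and age-1 over 8499 to 9377 and 6784 to 7094, again without overlap. The rise was 1.83-fold in raga-1 (log2 0.87 ± 0.0623, adjusted p 1.91e-14), 1.49-fold in wild type (1.35e-08), 1.39-fold in eat-2 (2.17e-07), 1.34-fold in clk-1 (9.08e-07) and 1.28-fold in age-1 (7.01e-05).

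Every mutant had more fat-2 than wild type on empty vector. The excess was 3.17-fold in raga-1 (adjusted p 5.4e-21), 2.73-fold in clk-1 (2.19e-20), 1.51-fold in eat-2 (5.17e-10) and 1.34-fold in age-1 (5.91e-06). On repo-1 RNAi it was 3.89-fold in raga-1 (4.31e-24), 2.45-fold in clk-1 (6.19e-19), 1.41-fold in eat-2 (6.56e-08) and 1.16-fold in age-1 (0.0237). The last call was lost without wild type RNAi replicate 4 or age-1 RNAi replicate 3 (adjusted p 0.0638 to 0.0651) and under quantile normalization (log2 0.12, adjusted p 0.245).

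fat-3 and fat-4 encode the desaturases that act later on polyunsaturated chains. fat-3 about doubled on repo-1 RNAi in raga-1, with 2085, 1771, 1725 and 1794 normalized counts on repo-1 RNAi, against 1011, 956, 964 and 1009.7 on empty vector. In clk-1 the values were 856, 978, 1027 and 946 on repo-1 RNAi, against 730.0, 759, 693 and 669 on empty vector. Wild type held 701, 744, 755 and 795 on repo-1 RNAi, against 806, 838, 761 and 924 on empty vector. The foods were separate in raga-1 and clk-1 and overlapped in wild type. fat-3 rose 1.87-fold in raga-1 (log2 0.90 ± 0.0665, adjusted p 4.65e-14) and 1.33-fold in clk-1 (3.66e-06). In eat-2, with 754 to 841 on repo-1 RNAi and 679 to 736 on empty vector, the log2 change of 0.17 passed (adjusted p 0.0474). That call was lost without empty vector replicates 1, 2 or 4 or RNAi replicates 1 or 2 (0.0559 to 0.134). Leaving out batch 1, 2 or 3 also ended it (0.0507 to 0.228). It was lost too with the replicate number as a block, edgeR, TMM scaling or a mean of at least 1 (0.0552 to 0.173). The log2 change was -0.15 in wild type (adjusted p 0.099, but 0.0467 without empty vector replicate 3) and -0.14 in age-1 (0.143). On empty vector fat-3 was higher in raga-1 than in wild type (log2 0.25, adjusted p 0.00271) and lower in clk-1 (-0.22, 0.00457) and eat-2 (-0.23, 0.00339). On repo-1 RNAi it was 2.46-fold higher in raga-1 (adjusted p 8.02e-19) and higher in clk-1 (log2 0.34, 3.65e-05), so that clk-1 lay below wild type on one food and above it on the other.

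fat-4 was called in no genotype under repo-1 RNAi and was higher in raga-1 and clk-1 than in wild type. In raga-1 the libraries held 3792, 4012, 3963 and 3599 normalized counts on repo-1 RNAi, against 3036, 3637, 3648 and 3758 on empty vector. Wild type held 2303, 2423, 2322 and 2429 on repo-1 RNAi, against 2449.5, 2425, 2473 and 2575 on empty vector. All raga-1 libraries lay above all wild type libraries. Its log2 change under repo-1 RNAi ran from -0.20 in age-1 (adjusted p 0.0774) to 0.13 in raga-1 (0.161). It passed in age-1 without empty vector replicate 2 or RNAi replicates 3 or 4 (log2 -0.29 to -0.27, adjusted p 0.0102 to 0.0289), in eat-2 without RNAi replicate 1 (-0.22, 0.0494), with only those groups fitted or with array quality weights (0.00599 to 0.0225), and in raga-1 under quantile normalization (0.25, 0.0193). In raga-1 it was higher than in wild type by 0.50 on empty vector (adjusted p 7.3e-06) and by 0.70 on repo-1 RNAi (2.72e-09), on the log2 scale. In clk-1 it was higher by 0.29 on empty vector (0.00339) and 0.33 on repo-1 RNAi (0.00107). In eat-2 on empty vector the difference was 0.10 (0.297), and it passed with only those groups fitted (0.0128). In age-1 on repo-1 RNAi it was -0.15, and it passed without age-1 RNAi replicate 4 (-0.24, adjusted p 0.0368).

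fat-1, the omega-3 desaturase gene, took opposite directions in wild type and in raga-1. Wild type libraries held 4386, 4582, 4430.4 and 4510.3 normalized counts on repo-1 RNAi, against 5165, 4939, 5186 and 5262 on empty vector. raga-1 held 16355, 14164, 12247 and 14613 on repo-1 RNAi, against 10502, 9597, 8454 and 9428 on empty vector. In both genotypes the foods did not overlap, with RNAi below in wild type and above in raga-1. clk-1 held 9446, 9616, 9628 and 9580.4 on repo-1 RNAi, against 8389.8, 8659, 8619 and 8836 on empty vector, and eat-2 ranged over 4787 to 5212 on repo-1 RNAi and 4344 to 4678 on empty vector. fat-1 fell by 0.20 on the log2 scale in wild type (adjusted p 0.0135) and rose 1.51-fold in raga-1 (log2 0.59 ± 0.0594, adjusted p 9.03e-11). It rose by 0.15 in clk-1 (0.0375) and 0.15 in eat-2 (0.0454). The clk-1 call was lost without any one of 7 of its 8 libraries, all but empty vector replicate 4 (adjusted p 0.0503 to 0.091), and under edgeR, TMM scaling and quantile normalization (log2 0.03 to 0.11, adjusted p 0.112 to 0.604). The eat-2 call was lost without empty vector replicates 1, 3 or 4 or RNAi replicates 2, 3 or 4 (0.0558 to 0.129). Leaving out any one of the 4 batches also ended it (adjusted p 0.0508 to 0.145). So did edgeR, TMM scaling and a filter at a mean of at least 1 (0.0522 to 0.153). age-1 ranged over 4289 to 5202 on repo-1 RNAi and 4908 to 5150.4 on empty vector, with a log2 change of -0.07 (0.403).

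Against wild type on empty vector, fat-1 was 1.84-fold higher in raga-1 (adjusted p 2.05e-14) and 1.68-fold higher in clk-1 (4.28e-13), and it was lower by 0.19 on the log2 scale in eat-2 (0.00555). That eat-2 call was lost under quantile normalization (log2 -0.09, adjusted p 0.131). On repo-1 RNAi the excess was 3.19-fold in raga-1 (5.47e-23) and 2.14-fold in clk-1 (1.78e-17). In eat-2 it was 0.15 on the log2 scale (0.032), a call lost without wild type RNAi replicates 1 or 3 or eat-2 RNAi replicates 2 or 4 (0.0625 to 0.0976).

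The difference in RNAi response between each mutant and wild type was tested as an interaction. In raga-1, 4 of the 7 responses were above those of wild type and 0 below, where 28.4% of all tested genes were above and 27.2% below. They were fat-3 (log2 1.05 ± 0.094, adjusted p 4.21e-11), fat-1 (0.79, 1.57e-09), fat-6 (0.34, 0.015) and fat-2 (0.29, 0.00548). The fat-6 call was lost without wild type RNAi replicate 4 (0.26, adjusted p 0.0556), and the fat-2 call under quantile normalization (0.11, 0.317). In clk-1, fat-3 (0.57, 2.08e-05) and fat-1 (0.35, 0.0021) were above and 0 below, against 13.7% and 9.9% of all tested genes. In eat-2, fat-1 (0.35, 0.00452) and fat-3 (0.32, 0.0241) were above and 0 below, against 3.98% and 6.73%. The eat-2 fat-1 call was lost without batch 4 (0.34, adjusted p 0.0564). The eat-2 fat-3 call was lost without wild type empty vector replicate 4, wild type RNAi replicate 1, eat-2 empty vector replicate 1 or eat-2 RNAi replicates 1 or 2 (0.0523 to 0.0738). In age-1 limma called 0 of the 7 in each direction, where 0.00811% of all tested genes were above and 0% below. At an unadjusted p under 0.05, 2 of the 7 and 695 of all genes passed in age-1, and edgeR called 0 of the 7. The interaction of fat-7 in raga-1 (-0.85, adjusted p 0.231) passed with edgeR and with only those groups fitted (0.0196 to 0.02). With only the groups compared, the interactions of fat-7 in eat-2 (-0.96, 0.0327) and fat-4 in raga-1 (0.20, 0.0436) also passed, and that of fat-2 in clk-1 passed under quantile normalization (-0.37, 0.00221).

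For raga-1, replicate 3 on repo-1 RNAi carried another date in its library name than the other 39 libraries, and it was the lowest of its group for fat-1, fat-2, fat-3 and fat-5. Without it, the RNAi rises in raga-1 were 0.67 for fat-1, 0.95 for fat-2, 0.93 for fat-3 and 1.06 for fat-5 on the log2 scale, each still called.

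Marker sums moved with food for every tissue in raga-1 and clk-1, and for some tissues in wild type, eat-2 and age-1. In raga-1 on repo-1 RNAi, 9 of 12 intestinal markers rose and 0 fell, with summed counts of 80239 to 87317 on repo-1 RNAi and 51403 to 58313 on empty vector. Of 9 hypodermal markers 6 rose and 1 fell (39245 to 40494 on repo-1 RNAi, 20371 to 27800 on empty vector). All 12 oocyte and germline markers fell (127570 to 141943 on repo-1 RNAi, 229253 to 255096 on empty vector). All 7 tested sperm markers rose (1268 to 1543 on repo-1 RNAi, 112 to 318 on empty vector). In clk-1, 6 intestinal markers rose and 2 fell, 4 hypodermal markers rose and 3 fell, 2 germline markers rose and 6 fell, and all 7 sperm markers rose. The clk-1 sums on repo-1 RNAi and on empty vector were 90400 to 113031 and 70391 to 82927 for intestine, 26887 to 31737 and 15315 to 17481 for hypodermis, and 168377 to 179616 and 201320 to 222042 for germline. Sperm markers summed to 326 to 1440 on repo-1 RNAi and 74 to 96 on empty vector in clk-1. In wild type the intestinal sums overlapped (49484 to 52829 on repo-1 RNAi, 49667 to 57508 on empty vector), with 1 intestinal marker higher and 3 lower. Higher and lower calls in wild type were 1 and 1 for hypodermis, 0 and 3 for germline and 3 and 0 for sperm. In eat-2 they were 1 and 1 for intestine, 1 and 3 for hypodermis, 0 and 3 for germline and 6 and 0 for sperm, and in age-1 they were 1 and 3, 1 and 1, 0 and 2, and 3 and 0. Germline sums fell without overlap in wild type (228883 to 237739 against 237751 to 251984 on empty vector). They fell in eat-2 too (199158 to 202222 against 204145 to 210397). Sperm sums rose in wild type (281 to 414 against 104 to 195) and eat-2 (295 to 449 against 95 to 288). Those of age-1 (215 to 523 against 126 to 199) and the hypodermal sums of eat-2 (22698 to 25580 against 18123 to 18882) also rose. The other sums of these genotypes overlapped. Of all markers, peel-1, a sperm gene, alone was at 0 in all 4 libraries of a group, on empty vector in eat-2, raga-1 and age-1. On empty vector, intestinal sums in raga-1 overlapped those of wild type, while those of clk-1 and of eat-2 (69901 to 73923) lay above. There, 8 intestinal markers were higher and 0 lower in eat-2, 4 and 4 in clk-1, 3 and 4 in raga-1, and 1 and 1 in age-1. Of the germline markers 11 were lower in eat-2, 10 in clk-1, 6 in raga-1 and 1 in age-1, with 0, 0, 1 and 2 higher. Hypodermal calls higher and lower were 3 and 2 in eat-2 and in clk-1, 1 and 1 in raga-1 and 0 and 0 in age-1. Hypodermal sums in eat-2 (18123 to 18882) and clk-1 (15315 to 17481) lay below wild type (20803 to 24464). The raga-1 and age-1 sums overlapped wild type. Sperm markers were lower in clk-1 alone (2), and 0 were higher in any mutant. On repo-1 RNAi, intestinal markers higher and lower than in wild type were 10 and 2 in raga-1, 9 and 1 in clk-1, 10 and 0 in eat-2 and 1 and 2 in age-1. On that food 12 germline markers were lower in raga-1, 12 in clk-1, 11 in eat-2 and 1 in age-1, with 0, 0, 0 and 3 higher. Hypodermal markers higher and lower were 5 and 1 in raga-1, 2 and 1 in clk-1, 5 and 1 in eat-2 and 0 and 0 in age-1, and sperm markers were higher in raga-1 (7) and clk-1 (3). The counts of called markers are to be read against the shares of all tested genes given above for each comparison. The part of these markers in the desaturase results was not tested.

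Among 12 known regulators of desaturase genes, sbp-1 rose under repo-1 RNAi in 3 of the mutants. It averaged 1414.3 ± 112.5 normalized counts in raga-1 on repo-1 RNAi, against 866.7 ± 46.15 on empty vector, and rose in raga-1 (log2 0.70, adjusted p 1.76e-08), clk-1 (0.65, 2.88e-07) and eat-2 (0.40, 0.000663). In wild type it was 698.9 ± 33.23 on repo-1 RNAi, against 669.8 ± 47.06 on empty vector, with a log2 change of 0.06 (0.664). nhr-80 rose in raga-1 (0.52, 5.34e-06) and was higher than in wild type on empty vector in raga-1 (0.79, 7.8e-09), eat-2 (0.59, 9.88e-07) and clk-1 (0.35, 0.0014). Of the 12, 5 rose and 5 fell in raga-1, 2 rose and 2 fell in both eat-2 and clk-1, 1 rose and 1 fell in age-1, and mdt-15 alone fell in wild type (-0.14, 0.0325). The raga-1 count is to be read against the 38.2% of all tested genes that rose and the 33% that fell there. The raga-1 risers also held nhr-62, daf-16 and nhr-49, and the raga-1 genes that fell were nhr-13, scp-1, iglr-2, nhr-66 and paqr-2. On empty vector 4 regulators were higher and 2 lower in raga-1, 5 and 2 in clk-1, 2 and 3 in eat-2, and 0 and 0 in age-1. Shares of all tested genes there were 19.7% higher and 26.4% lower in raga-1 and 27.8% and 30.4% in clk-1. In eat-2 they were 27.2% and 29.8%, and in age-1 4.76% and 3.72%.

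The supply of substrate and the steps after desaturation were read from lists of de novo synthesis, elongation, electron transfer, lipid assembly and lipid-binding genes. fasn-1, the fatty acid synthase, rose in wild type (log2 0.30, adjusted p 5.16e-05) and in raga-1 (0.44), and pod-2, the acetyl-CoA carboxylase, rose in raga-1 (0.33). Of the 4 synthesis genes 1 rose and 1 fell in wild type, 2 and 1 in raga-1, 1 and 0 in both clk-1 and age-1, and 0 and 0 in eat-2. Of 10 tested elongation genes 4 rose and 0 fell in raga-1, 2 and 0 in clk-1, 0 and 2 in wild type and in eat-2, and 0 and 1 in age-1. The pair that fell in wild type was elo-5 (-0.42) and elo-3 (-0.35). Of all tested genes 38.2% rose and 33% fell in raga-1 on repo-1 RNAi, and 23.8% and 22.5% in clk-1. These shares were 10.1% and 12.9% in wild type, 16.2% and 21.4% in eat-2 and 10.6% and 10.2% in age-1. On empty vector 7 elongation genes were lower in raga-1 and 0 higher, elo-4 (log2 -1.26), elo-5 (-0.82) and elo-2 (-0.81) among them, in the same comparison in which all 7 desaturase genes were higher. There 19.7% of all tested genes were higher and 26.4% lower. In clk-1 on empty vector 6 elongation genes were lower and 1 higher, against 30.4% and 27.8% of all tested genes. Of the desaturase genes 3 were higher and 3 lower in that clk-1 comparison. In both eat-2 and age-1 on empty vector 2 elongation genes were lower and 0 higher.

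Of the 3 electron transfer genes 2 rose and 1 fell on repo-1 RNAi in raga-1, 1 and 0 in clk-1 and in eat-2, 1 and 2 in age-1, and 0 and 2 in wild type. dgat-2, an acyltransferase that makes triacylglycerol, averaged 2194.6 ± 301.4 normalized counts in raga-1 on repo-1 RNAi, against 926.3 ± 182.8 on empty vector (log2 1.25). It was 9.38-fold higher in raga-1 than in wild type on empty vector (adjusted p 1.06e-13), where wild type averaged 97.2 ± 13.98. Of the 6 lipid assembly genes 2 rose and 3 fell in raga-1, 2 and 1 in clk-1, 1 and 1 in eat-2, 0 and 3 in wild type, and 0 and 2 in age-1. Of the 9 lipid-binding genes 6 rose and 2 fell in raga-1, 2 and 0 in clk-1, 1 and 2 in eat-2, and 0 and 0 in wild type and in age-1. These list counts are to be read against the same shares of all tested genes, with 38.2% higher and 33% lower in raga-1.

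The likeness of the 7 genes over the 40 libraries is given as Pearson correlations of log2 values, whose points share groups and scaling. fat-1 and fat-2 had r = 0.912, and r = 0.517 once group means were removed. fat-5 and fat-6 had r = 0.845, and 0.498 within groups. fat-3 and fat-6 had r = 0.83 over the libraries but -0.141 within groups, and fat-1 and fat-4 had 0.818 and -0.518, so those likenesses lay between group means. fat-7 had r = 0.759 with fat-5 and 0.576 with its paralog fat-6, and 0.23 and 0.026 within groups. Without the 8 clk-1 libraries, the values within groups were -0.096 with fat-5 and 0.438 with fat-6. fat-7 had -0.071 with fat-2 and -0.048 with fat-1.

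Among 5009 named genes with a mean of at least 100, the 3 most like each desaturase gene over the 40 libraries were taken by the same correlation. fat-2 was most like catp-3 (0.959), far-2 (0.954), a fatty acid and retinol binding protein, and heh-1 (0.948). fat-1 was most like hlh-11 (0.945), srp-1 (0.941) and ttr-24 (0.94). For fat-6 they were ttc-36 (0.932), gpdh-1 (0.93), a glycerol-3-phosphate dehydrogenase, and pat-10 (0.927), the body wall muscle troponin C. For fat-5 they were dhs-26 (0.912), grd-10 (0.906) and pgph-3 (0.888). fat-3 was closest to csq-1 (0.936), the calsequestrin gene, pat-10 (0.923) and nhr-76 (0.914). fat-4 was closest to cbl-1 (0.913), zip-9 (0.902) and hpd-1 (0.892). fat-7 was closest to vit-3 (0.905), a yolk protein gene, pud-3 (0.9) and sna-1 (0.896).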

How the data were processed

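Whole-worm RNA was extracted with Qiagen miRNeasy and made into stranded mRNA libraries, per the labels' protocols. The submitters' processing notes list Salmon 0.14.2, STAR, DESeq2, FastQC 0.11.8, MultiQC and build WBcel235, with no roles. The deposited table holds a signal per gene: counts the authors divided by 1 size factor per library. Whole reads were recovered for 100% of values within 0.01, and 19897 of 20956 gene IDs matched reference names. limma 3.58.1 (R 4.3.3) fitted log2(value + 1) for genes with a mean of at least 10, with 10 group means on 40 libraries and 17 comparisons. edgeR 4.0.16 ran on the recovered reads as an alternative. Other alternatives were the pseudocount, the filter, the scaling, the samples fitted, quality weights, the replicate block and leaving out libraries. Per the labels, replicate numbers mark batches, each with 1 library per group. Deviations of same-numbered libraries had a median r of 0.031, against -0.014 for different numbers. Simulated data were used to test the scripts. All 7 genes passed the filter. The genes and lists were chosen with earlier results of these data known. All 7 genes, up to 4 called genes per list and comparison, any listed regulator and the 3 most alike genes per desaturase gene could be named.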

Additional observations from a re-analysis of the deposited data

Results flagged for a closer look

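In 4 of 70 gene and group combinations 1 library stood apart from the other 3 of its group by Dixon's test at its 95% critical value, which chance gives in about 1 of 20 groups. They were fat-2 in raga-1 empty vector replicate 1 (17556.9 normalized counts, high), fat-4 in raga-1 empty vector replicate 1 (3035.5, low), fat-4 in clk-1 repo-1 RNAi replicate 2 (3377.5, high) and fat-7 in wild type repo-1 RNAi replicate 4 (147.8, low).

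The RNAi response differed from that of wild type, by the interaction test in limma, in 8 of 28 gene and mutant combinations. In raga-1 the log2 differences were 1.05 for fat-3, 0.79 for fat-1, 0.34 for fat-6 and 0.29 for fat-2. In clk-1 they were 0.57 for fat-3 and 0.35 for fat-1, and in eat-2 0.35 for fat-1 and 0.32 for fat-3. Of all tested genes, 28.4% had a response above wild type and 27.2% below in raga-1, and 13.7% and 9.9% in clk-1. In eat-2 the shares were 3.98% and 6.73%, and in age-1 0.00811% and 0%. The raga-1 count is thus to be read against a common event.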

How the results depend on the processing

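Of 119 gene and comparison results, 68 were called and 49 of those were called under every alternative run. Of the 51 not called, 34 were called under none. Among results called in the main fit or in the alternative, 0 changed direction. Some results called in neither did change sign. The fat-7 interaction in clk-1, for example, ran from -0.30 to 0.80 (log2) with libraries or batches left out. The count of desaturase genes called in eat-2 on repo-1 RNAi was 5, but 2 with edgeR, 3 with a mean of at least 1 and 2 with TMM scaling. The eat-2 interaction count was 2 (fat-7 joined with only the groups compared), but 1 with edgeR and 1 with TMM scaling. For age-1 against wild type on repo-1 RNAi the count was 1, but 0 with quantile normalization and 2 with only the groups compared. With 1 library or 1 batch left out at a time the counts ran from 2 to 5 for eat-2 on repo-1 RNAi, 0 to 2 for its interaction, 0 to 2 for age-1 against wild type on repo-1 RNAi, 1 to 2 for age-1 and 3 to 5 for eat-2 against wild type on empty vector. The causes were not tested. With the replicate block, fat-3 in eat-2 lost its call (log2 0.17, adjusted p 0.0558), and the block changed no other call. The lowest values of the eat-2 interaction (0) and of eat-2 on empty vector (3) came from leaving out a batch, and with single libraries they were 1 and 4. Among other calls lost without a batch, leaving out batch 4 ended those of fat-1 in wild type (adjusted p 0.0901) and fat-3 in clk-1 against wild type on empty vector (0.121). Among all tested genes, quality weights called 4460 in place of 2839 in wild type on repo-1 RNAi, and the fit of only the groups compared called 1067 in place of 2572 in age-1. Few reads limit fat-7 in clk-1.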
